A study of Homo sapiens with 12 samples.

Results

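Z-138 is an established line of mantle cell lymphoma, a cancer of mature B cells, and the data described here compare SMARCA4 knockdown with a control shRNA while both were treated with ibrutinib plus venetoclax. The comparison takes 6 of the 12 libraries of the study, chosen by the shRNA and the treatment in their labels. The tested cells carried an shRNA against SMARCA4 (3 libraries) and the control cells a control shRNA (3 libraries). Both were grown with doxycycline, and both received 3 µM ibrutinib and 3 µM venetoclax. The other 6 libraries hold the same shRNAs in DMSO, with doxycycline, and are used only where the effect of the knockdown is set beside its effect without drug. The labels give neither the time on drug or doxycycline nor the number of hairpins or clones behind each shRNA. Each knockdown library carries the SMARCA4 construct, so loss of SMARCA4 and other effects of that construct cannot be told apart.

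SMARCA4, also called BRG1, is an ATPase of the SWI/SNF complexes, which use ATP to slide and evict nucleosomes and so open enhancers and promoters. Ibrutinib blocks BTK, a kinase that carries the signal of the B cell receptor, and venetoclax blocks the survival protein BCL2. BCL-XL and MCL1 are related survival proteins that venetoclax does not block at its usual exposure. The title of the study links SWI/SNF mutations to resistance to this combination, and the comparison shows which genes differ with SMARCA4 while the drugs are present.

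Gene counts came from libraries that read the 3' ends of mRNA. Totals were 7279503, 8217130 and 8896669 counts in the knockdown libraries, against 8732642, 7905971 and 8632355 counts in the control libraries. Of 13820 genes in the table, 12602 had enough counts to be tested, and levels are in CPM, a count scaled to its library's total after that total was multiplied by a factor from the trimmed mean of M values (TMM). Among the control columns, 1 names the shRNA and replicate 1 but no treatment. It was taken as drug-treated because each other sample had a column of its own, and results that change without it are given. Ribosomal RNA rows took 8.36% ± 1.01 of counts in knockdown libraries and 10.6% ± 0.330 in control libraries (SD, n = 3 each; two-sided exact permutation test p = 0.1, the smallest that 3 against 3 allow). Of 10 B cell markers, 9 had a row, and their sum was 1380 to 1470 CPM in knockdown libraries and 1970 to 2200 CPM in control libraries. Most of that sum was CD74, with means of 1126 CPM in knockdown and 1451 CPM in control libraries. Tested singly, 6 of the 9 fell, 0 rose (1 without knockdown replicate 3) and 3 did not pass. These 3 were PAX5, EBF1 and CD37, with log2 fold changes of -0.04, -0.05 and 0.62. Markers of monocytes (8 listed), erythroid cells and megakaryocytes (8) and endothelium (4) had no row under those symbols. Whether the 3 replicates came from separate cultures is not in the labels, and p-values therefore cover only the spread among these libraries, which may be technical.

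SMARCA4 (ENSG00000127616) was the check of the knockdown. It stood at 167, 174 and 184 CPM in knockdown libraries, against 588, 599.5 and 642 CPM in control libraries. The groups were far apart, and the knockdown left 28.7% of the control level (log2 fold change -1.80, SE 0.06, adjusted p = 1.96e-21; edgeR's quasi-likelihood test with Benjamini-Hochberg adjustment over all genes tested, as for every adjusted p here).

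The other subunits of SWI/SNF moved far less. Of 27 subunit genes tested, 6 rose, 6 fell (SMARCA4 among them) and 15 did not pass, against 14.8% of all genes tested that rose and 16.3% that fell. SMARCA2, the alternative ATPase also called BRM, had 55.8, 61.7 and 70.8 CPM in knockdown libraries, against 79.7, 90.3 and 86.5 CPM in control libraries. All its knockdown libraries lay below its control libraries (log2 fold change -0.44, SE 0.07, adjusted p = 2.54e-05). SMARCB1, a core subunit, also fell (log2 fold change -0.23, SE 0.07), as did SMARCD2 (log2 fold change -0.35, SE 0.06) and ACTB (log2 fold change -0.32, SE 0.05), which encodes beta-actin and is also a subunit. The 6 rises were in other subunits. SMARCD3, best known from muscle, had 21.3, 22.4 and 18.3 CPM in knockdown libraries, against 11.3, 12.01 and 11.6 CPM in control libraries (log2 fold change 0.83, SE 0.13, adjusted p = 4.64e-06), with no overlap. ARID2, a subunit of the PBAF form, rose by 0.37 (SE 0.07), BCL7A by 0.36 (SE 0.05), and GLTSCR1 (BICRA) and GLTSCR1L (BICRAL), which define the non-canonical form, by 0.55 (SE 0.18) and 0.33 (SE 0.09). ARID1A, the subunit most often mutated in cancer, had 58.01, 58.7 and 61.9 CPM in knockdown libraries, against 59.3, 59.5 and 44.5 CPM in control libraries, with overlap between groups (log2 fold change 0.13, SE 0.10, adjusted p = 0.334). With library totals alone 10 rose and 4 fell. SMARCB1 lost its call with library totals and without control replicate 3, and GLTSCR1 lost its call without knockdown replicate 2 or control replicate 3.

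Across all genes tested, 1860 rose (14.8%) and 2059 fell (16.3%) with knockdown, which is 31.1% of 12602. The counts of each gene list below stand against these shares. At least 2-fold changes were seen in 348 genes that rose (2.76%) and 459 that fell (3.64%). With library totals in place of TMM scaling, 2691 rose and 1447 fell, and the median gene had a log2 fold change of 0.08 against 0.00, so the share of calls that were rises was 65% against 47.5%. Without the control library that names no treatment, 1641 rose and 1835 fell, and 83.5% of the 3919 calls were kept, 0 of them in the opposite direction. Genes with a large change were spread over the range of expression, and the largest fitted folds lay at the low end, where 1 group had almost no counts.

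**Figure D1:**
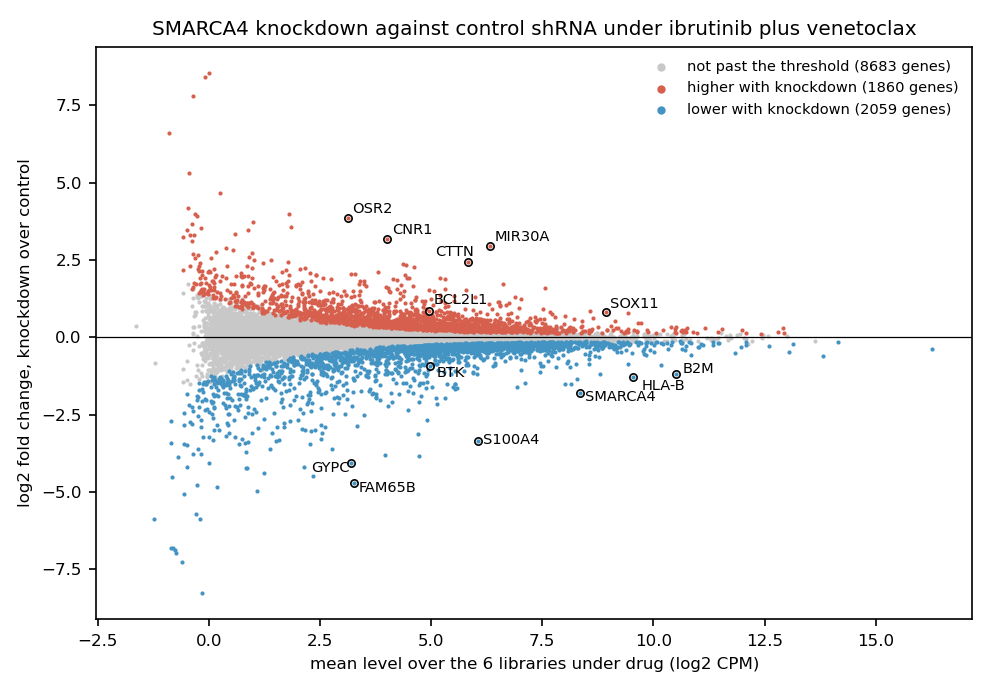
Log2 fold change of knockdown over control under drug (vertical axis) against the mean level in log2 CPM (horizontal axis), 1 point per gene tested, coloured by call. Of 12602 genes, 1860 lie above 0 and 2059 below 0 past adjusted p of 0.05; circled genes are named in the text, with OSR2 at 3.87 and FAM65B at -4.70.

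The genes that rose most with knockdown, among those whose mean log2 CPM reached 3 and whose groups did not overlap, belong to several unrelated families. Across all genes tested the knockdown libraries lay wholly above the control libraries in 19.8%, and the groups were apart in either direction in 41%. OSR2, a zinc finger transcription factor known from palate and limb development, had 33.2, 30.8 and 32.7 CPM in knockdown libraries, against 1.98, 1.81 and 2.78 CPM in control libraries (log2 fold change 3.87, SE 0.15, adjusted p = 2.45e-19). CNR1, the cannabinoid receptor type best known from brain, had 45.8, 49.2 and 49.4 CPM in knockdown libraries, against 5.6, 4.52 and 5.68 CPM in control libraries (log2 fold change 3.19, SE 0.12, adjusted p = 1.94e-19). Both genes were near the floor of the control cells and well measured in the knockdown cells. CTTN, which encodes cortactin, a protein that binds branched actin, had 137, 127 and 133 CPM in knockdown libraries, against 24.1, 24.4 and 24.8 CPM in control libraries (log2 fold change 2.44, SE 0.07, adjusted p = 6.18e-22). PFN2, a profilin that binds actin monomers, had 50.5, 44.3 and 45.2 CPM in knockdown libraries, against 6.53, 9.3 and 11.4 CPM in control libraries (log2 fold change 2.37, SE 0.13, adjusted p = 1.34e-15). KCNK12, a potassium channel subunit, had 51.6, 51.7 and 42.9 CPM in knockdown libraries, against 9.44, 8.65 and 10.4 CPM in control libraries (log2 fold change 2.35, SE 0.12, adjusted p = 2.35e-16). For these 3 genes the lowest knockdown library was several times above the highest control library. ARPP21, a cAMP-regulated phosphoprotein gene, and ADM, which encodes the vasodilator peptide adrenomedullin, rose by 2.26 (SE 0.09) and 2.11 (SE 0.14). SDC1, the gene of the plasma cell surface protein syndecan-1, had 40.03, 42.1 and 43.9 CPM in knockdown libraries, against 9.09, 12.8 and 9.67 CPM in control libraries (log2 fold change 2.01, SE 0.11, adjusted p = 3.24e-15). ST3GAL5, the enzyme that makes the ganglioside GM3, had 71.8, 71.6 and 69.8 CPM in knockdown libraries, against 17.95, 18.6 and 19.7 CPM in control libraries (log2 fold change 1.92, SE 0.08, adjusted p = 5.62e-18). Its replicates were among the tightest of the 15. The rest of the 15 were CCDC110, SEMA4C, RGAG4, PLAC8 and SLC37A3, which rose by 1.89 to 2.05.

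The row labelled MIR30A had 238, 203 and 237 CPM in knockdown libraries, against 36.5, 25.7 and 24.2 CPM in control libraries (log2 fold change 2.97, SE 0.11, adjusted p = 4.84e-20). These libraries are primed on poly(A) tails, which mature microRNAs lack, so the row counts longer RNA and not the mature products. Whether that RNA comes from the locus, a host transcript or the shRNA construct cannot be told from the counts. The mature products that this gene is annotated with in RefSeq (GRCh38.p14, chr6:71403554-71403575 and chr6:71403595-71403616, minus strand) are shown because the row is among the largest rises, with the seed, bases 2 to 8, in capitals.
hsa-miR-30a-5p: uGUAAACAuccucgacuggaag
hsa-miR-30a-3p: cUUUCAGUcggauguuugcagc
The 2 arms have different seeds, and neither was measured here.

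The largest falls held several genes of leukocytes. FAM65B (also RIPOR2), an inhibitor of the small GTPase RHOA, had 1.71, 2.27 and 1.43 CPM in knockdown libraries, against 46.3, 46.1 and 48.6 CPM in control libraries (log2 fold change -4.70, SE 0.14, adjusted p = 7.97e-22). GYPC, glycophorin C, which anchors the membrane skeleton, had 2.23, 2.27 and 1.98 CPM in knockdown libraries, against 36.5, 32.8 and 37.7 CPM in control libraries (log2 fold change -4.04, SE 0.15, adjusted p = 1.58e-19). In both the knockdown libraries kept only a small remnant of the control level, and the 3 control libraries were close to each other. S100A4, a calcium-binding protein, had 21.9, 18.1 and 21.8 CPM in knockdown libraries, against 209, 195 and 229.5 CPM in control libraries (log2 fold change -3.35, SE 0.09, adjusted p = 1.63e-23). TNFRSF1B, which encodes TNF receptor 2, had 7.61, 8.83 and 9.66 CPM in knockdown libraries, against 79.3, 68.6 and 80.1 CPM in control libraries (log2 fold change -3.12, SE 0.10, adjusted p = 6.38e-21). MYOM2, known from the muscle sarcomere, had 4.2, 2.63 and 5.49 CPM in knockdown libraries, against 53.3, 55.8 and 66.1 CPM in control libraries (log2 fold change -3.81, SE 0.15, adjusted p = 4.11e-19). No library overlapped between the groups for any of them. COTL1, which binds filamentous actin, LPXN, an adaptor of adhesion sites, the sorting receptor SORL1, the RNA-binding splicing regulator CELF2 and RPRML also fell, with log2 fold changes of -2.34, -2.49, -2.22, -2.15 and -2.67. NLRC5 and FADS3 also belong to the 15 and are described with their lists.

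**Figure D2:**
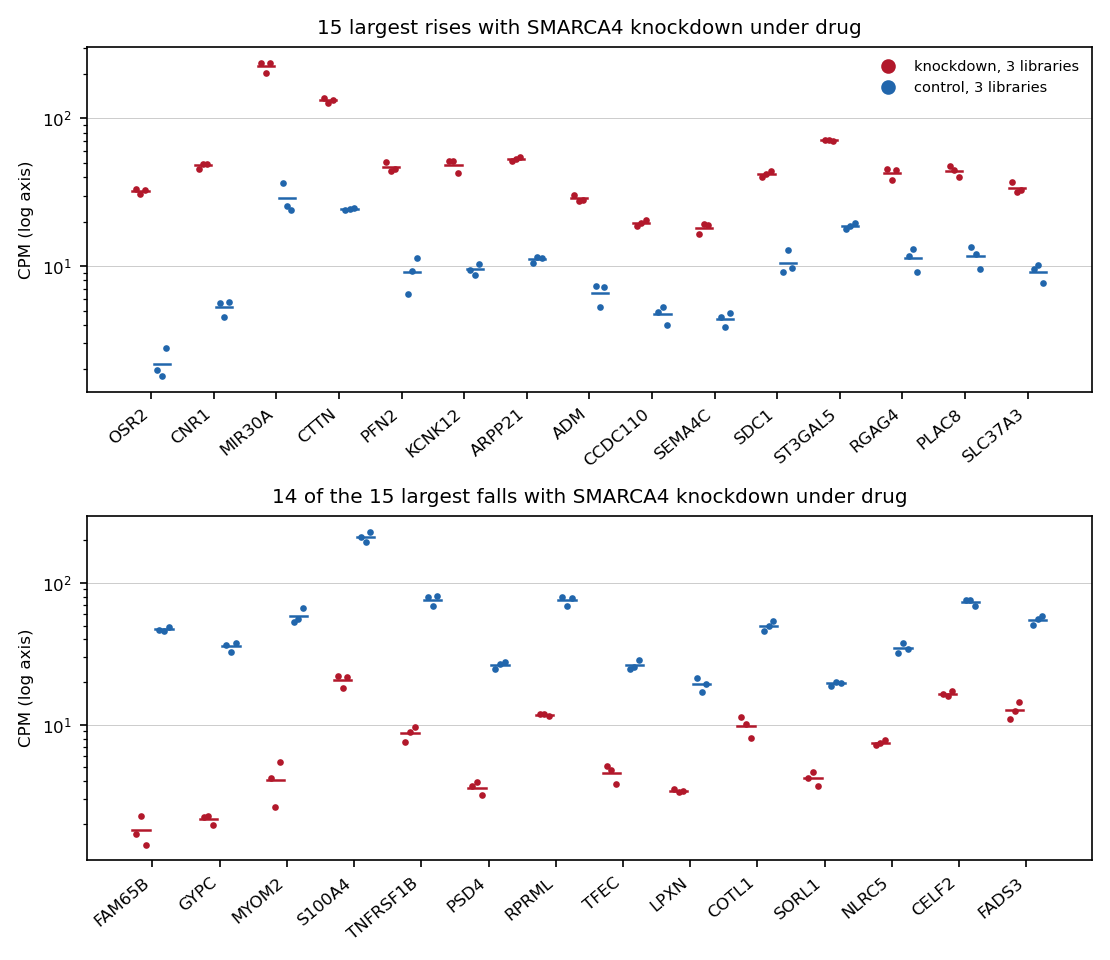
Level in CPM (log axis) of the 15 largest rises (upper panel) and 14 of the 15 largest falls (lower panel) under drug; points are single libraries, knockdown left of control, and bars are means of 3. Knockdown and control libraries are apart for all 29 genes, as the selection required.

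PSD4, an exchange factor for the small GTPase ARF6, and TFEC, a transcription factor of the MiT family, also belong to the 15 largest falls. PSD4 had 3.67, 3.94 and 3.18 CPM in knockdown libraries, against 24.8, 26.99 and 27.6 CPM in control libraries (log2 fold change -2.88, SE 0.15, adjusted p = 8.51e-16). TFEC had 5.12, 4.77 and 3.84 CPM in knockdown libraries, against 24.8, 25.3 and 28.4 CPM in control libraries (log2 fold change -2.52, SE 0.14, adjusted p = 1.69e-15). Both were low but well separated. Their promoters are shown because they are the 2 of the 11 largest falls with a RefSeq promoter (GRCh38.p14, 250 bases before to 50 after the start) that hold AGGAAGT, letters that transcription factors of the ETS family are known to bind, in capitals. PSD4 lies at chr2:113173721-113174020 on the plus strand and TFEC at chr7:116030714-116031013 on the minus strand.
PSD4: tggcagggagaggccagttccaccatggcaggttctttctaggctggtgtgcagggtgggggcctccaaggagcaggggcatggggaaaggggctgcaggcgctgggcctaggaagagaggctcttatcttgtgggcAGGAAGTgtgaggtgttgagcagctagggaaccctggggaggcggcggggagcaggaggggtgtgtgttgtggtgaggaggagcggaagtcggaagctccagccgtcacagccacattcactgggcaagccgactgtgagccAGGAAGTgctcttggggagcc
TFEC: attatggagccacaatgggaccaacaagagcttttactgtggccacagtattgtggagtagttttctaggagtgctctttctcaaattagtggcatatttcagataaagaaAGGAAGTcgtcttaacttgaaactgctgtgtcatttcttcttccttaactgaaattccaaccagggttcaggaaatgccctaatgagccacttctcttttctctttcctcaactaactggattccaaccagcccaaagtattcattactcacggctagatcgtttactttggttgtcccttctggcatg
Searched on both strands, AGGAAGT was in 15.3% of 320 promoters of genes that fell at least 2-fold, 3.59% of 223 promoters of genes that rose at least 2-fold, and 8.31% of all 27305 promoters in the table. Promoters were found for 68.9% of the genes tested. A match of letters is a description and was not tested.

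Most measured genes for proteins on the B cell surface fell. Of 30 antigens listed, 20 were tested, and 15 fell while 0 rose (1 without knockdown replicate 3), with a median log2 fold change of -0.58 against 0.00 for all genes tested. In 16 of the 20 the knockdown libraries lay wholly below the control libraries, which was so for 21.2% of all genes tested. MS4A1, which encodes CD20, had 83.3, 78.8 and 84.6 CPM in knockdown libraries, against 234, 222 and 237 CPM in control libraries (log2 fold change -1.49, SE 0.06, adjusted p = 2.45e-19). CD79B, a signalling chain of the B cell receptor, had 39.5, 40.6 and 40.1 CPM in knockdown libraries, against 79.97, 63.03 and 81.8 CPM in control libraries (log2 fold change -0.91, SE 0.08, adjusted p = 3.02e-10). SPN, which encodes CD43, had 36.2, 39.4 and 33.9 CPM in knockdown libraries, against 78.1, 74.9 and 80.4 CPM in control libraries (log2 fold change -1.09, SE 0.08, adjusted p = 7.82e-13). For each, the lowest control library stood well above the highest knockdown library. CD52 stood at 1.31, 1.67 and 1.43 CPM in knockdown libraries, against 12.7, 11.6 and 11 CPM in control libraries (log2 fold change -2.99, SE 0.25, adjusted p = 2.63e-11), and at these levels it was close to absent from knockdown libraries. In RNA from whole cultures, fewer cells that express a gene and less RNA per cell cannot be told apart.

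Transcription factors of B cells moved in both directions. Of 28 tested, 7 rose and 9 fell, against 14.8% and 16.3% of all genes tested. The other 12 did not pass, PAX5 and EBF1 among them. SOX11, whose expression is characteristic of mantle cell lymphoma, had 656, 661 and 625 CPM in knockdown libraries, against 361, 371 and 375 CPM in control libraries (log2 fold change 0.81, SE 0.05, adjusted p = 1.96e-14). IKZF1, which encodes Ikaros, had 213, 188 and 209 CPM in knockdown libraries, against 127, 129.7 and 129 CPM in control libraries (log2 fold change 0.66, SE 0.06, adjusted p = 1.75e-10). Neither overlapped between groups. Among the falls, RUNX3 had 162, 171 and 177 CPM in knockdown libraries, against 262, 256 and 262 CPM in control libraries (log2 fold change -0.61, SE 0.05, adjusted p = 1.03e-10). FOXO1, a factor that PI3-kinase signalling keeps out of the nucleus, had 8.66, 6.68 and 9.66 CPM in knockdown libraries, against 23.4, 20.7 and 20.4 CPM in control libraries (log2 fold change -1.36, SE 0.14, adjusted p = 3.33e-09). ID2, an inhibitor of helix-loop-helix factors, fell by 1.05 (SE 0.10). SPI1, which encodes the ETS factor PU.1 and is named after its values were seen, had 1 count in each knockdown library and 26 to 33 counts in each control library. Plasma cell genes were split as well, with 3 of 12 higher and 5 lower. SDC1 and PRDM1, which encodes the plasma cell regulator BLIMP1, rose by 2.01 (SE 0.11) and 1.16 (SE 0.13). IGJ, the joining chain of secreted antibody, MZB1, a chaperone of antibody secretion, and CD38 fell by 0.75 (SE 0.05), 0.54 (SE 0.06) and 2.02 (SE 0.25). The immature B cell genes were ARPP21, which rose, IGLL1, a surrogate light chain that rose by 0.31 (SE 0.06), and VPREB3, which had 2.36, 2.75 and 2.41 CPM in knockdown libraries, against 10.5, 13.04 and 13.1 CPM in control libraries (log2 fold change -2.27, SE 0.19, adjusted p = 3.04e-11). The other 8 of 11 listed had no row under those symbols.

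Markers of T and NK cells were at low levels, and 2 of the 3 measured fell. Of 13 such markers, 3 had a row, and their sum was 2.03 to 3.54 CPM in knockdown libraries and 17.5 to 21.4 CPM in control libraries. CD3G had 15, 12 and 21 counts in knockdown libraries, against 156, 134 and 117 counts in control libraries (log2 fold change -3.11, SE 0.20, adjusted p = 4.06e-14). CD4 had 2, 4 and 2 counts, against 16, 26 and 16 in control libraries. PRF1, which encodes perforin, had 10, 1 and 2 counts in knockdown libraries, against 11, 6 and 12 counts in control libraries, with overlap, and did not pass (log2 fold change -1.16, SE 0.60, adjusted p = 0.146), although it did with limma-voom and without knockdown replicate 1. CD3D, CD3E and CD2 had no row under those symbols. Of 10 fibroblast and epithelial markers 1 had a row, COL1A1, at 14.2 to 15.1 CPM in knockdown and 25.2 to 26.0 CPM in control libraries. The part of other cells in the falls was not tested.

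Many genes that carry the B cell receptor signal, the target of ibrutinib among them, fell with knockdown while the drug was present. Of 30 kinases and adaptors tested, 16 fell and 2 rose (4 with library totals alone), with a median log2 fold change of -0.36. BTK itself had 21.1, 23.3 and 24.1 CPM in knockdown libraries, against 42.2, 43.5 and 44.5 CPM in control libraries (log2 fold change -0.92, SE 0.09, adjusted p = 4.46e-10), so its RNA was at 52.8% of the control level. PIK3CD, the PI3-kinase delta catalytic subunit, had 133, 129 and 137 CPM in knockdown libraries, against 251, 245 and 253 CPM in control libraries (log2 fold change -0.91, SE 0.05, adjusted p = 1.25e-14). Both showed tight replicates and no overlap. DAPP1, an adaptor that binds PI3-kinase products, had 13.9, 10.3 and 12.2 CPM in knockdown libraries, against 40.7, 39.7 and 40.1 CPM in control libraries (log2 fold change -1.73, SE 0.11, adjusted p = 2.86e-14). INPP5D, which encodes the inhibitory lipid phosphatase SHIP1, had 38.1, 39.6 and 46.2 CPM in knockdown libraries, against 76, 76.3 and 78.7 CPM in control libraries (log2 fold change -0.89, SE 0.08, adjusted p = 5.36e-11). The falls took in a brake of the pathway as well as its activators. HCLS1, the blood cell relative of cortactin, fell by 0.51 (SE 0.05), opposite to CTTN.

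Genes for receptors and ligands of the TNF family changed in both directions. Of 15 tested, 5 fell and 3 rose, against 16.3% and 14.8% of all genes tested. Without the control library that names no treatment 1 rose. TNFRSF21, which encodes death receptor 6, had 90.6, 96.1 and 91.96 CPM in knockdown libraries, against 31.8, 32.5 and 31.8 CPM in control libraries (log2 fold change 1.53, SE 0.07, adjusted p = 2.35e-17). TNFRSF13B, which encodes the BAFF and APRIL receptor TACI, had 5.91, 7.88 and 6.47 CPM in knockdown libraries, against 21.8, 21.3 and 21.6 CPM in control libraries (log2 fold change -1.67, SE 0.14, adjusted p = 2.36e-11). CD40, the receptor for T cell help, had 10.9, 12.5 and 11.1 CPM in knockdown libraries, against 22.5, 21.2 and 18.5 CPM in control libraries (log2 fold change -0.85, SE 0.12, adjusted p = 2.83e-06). TNFRSF10A, a receptor for TRAIL, fell by 0.55 (SE 0.12). None of the 4 overlapped between groups. Among 15 NF-kB subunits and inhibitors 3 rose (5 with library totals alone) and 1 fell, a share below the 31.1% of all genes tested that passed. RELB, an NF-kB subunit, rose by 0.29 (SE 0.06), NFKB2, another subunit, by 0.35 (SE 0.09) and TRAF3, an inhibitor of the non-canonical branch, by 0.30 (SE 0.07). NFKBIB stood at -0.27 on the log2 fold scale (SE 0.09, adjusted p = 0.0193), and its call was lost with library totals and without knockdown replicate 2 or control replicate 3.

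Most genes of HLA class I presentation, which displays peptides to T cells, fell. All 14 tested members had a negative log2 fold change, 10 fell past the threshold and 0 rose, and the median was -0.83. HLA-B had 473, 474 and 476 CPM in knockdown libraries, against 1119, 1122 and 1237 CPM in control libraries (log2 fold change -1.29, SE 0.05, adjusted p = 2.45e-19). B2M, the light chain that all class I molecules share, had 1009, 1053 and 851 CPM in knockdown libraries, against 2212, 2185 and 2231 CPM in control libraries (log2 fold change -1.19, SE 0.06, adjusted p = 3.75e-16). Both are abundant transcripts, and each had a wide gap between the groups. NLRC5, the transactivator of class I genes, had 7.22, 7.4 and 7.79 CPM in knockdown libraries, against 32.2, 37.8 and 33.97 CPM in control libraries (log2 fold change -2.21, SE 0.11, adjusted p = 3.36e-16). HLA-C fell by 0.95 (SE 0.05). HLA class I heavy chain genes are near-identical in long stretches, and reads shared between them can be split by the counting, so the separate values of HLA-B and HLA-C are uncertain while B2M and NLRC5 are not copies of them. The same fall was present in DMSO, at -1.31 for HLA-B, -1.16 for B2M and -1.80 for NLRC5.

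Promoters of HLA-B and B2M are shown with letters that several but not all class I promoters hold (GRCh38.p14). HLA-B lies at chr6:31357130-31357429 on the minus strand and B2M at chr15:44711267-44711566 on the plus strand. In HLA-B the capitals mark CCAAT, on either strand. In B2M they mark CCAAT and TTTC, any 2 bases, TTTC, the core of the interferon-stimulated response element, on either strand.
HLA-B: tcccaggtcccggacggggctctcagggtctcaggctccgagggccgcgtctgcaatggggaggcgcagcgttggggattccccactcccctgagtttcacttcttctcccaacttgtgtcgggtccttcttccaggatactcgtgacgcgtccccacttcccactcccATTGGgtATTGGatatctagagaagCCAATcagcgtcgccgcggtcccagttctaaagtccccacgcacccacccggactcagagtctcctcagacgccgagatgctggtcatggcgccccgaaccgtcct
B2M: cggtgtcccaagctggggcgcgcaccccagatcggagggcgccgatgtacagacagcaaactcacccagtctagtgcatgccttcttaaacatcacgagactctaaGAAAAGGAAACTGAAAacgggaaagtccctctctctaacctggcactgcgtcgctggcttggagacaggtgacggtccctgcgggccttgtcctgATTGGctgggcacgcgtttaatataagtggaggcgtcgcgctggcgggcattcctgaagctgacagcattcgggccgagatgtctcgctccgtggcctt
Of 11 class I promoters in the table, 6 held the interferon-stimulated core (54.5%, against 3.65% of all promoters) and 7 held CCAAT (63.6%, against 35.7%). B2M was among the 6 with the interferon-stimulated core and HLA-B was not. Of 23 interferon response genes tested, 7 fell and 2 rose, with a median of -0.26, and 1 rose without knockdown replicate 1, 2 or 3 or control replicate 3. IRF1, which binds such elements, had 25.99, 25.2 and 26.6 CPM in knockdown libraries, against 44.8, 46.5 and 49.6 CPM in control libraries (log2 fold change -0.86, SE 0.08, adjusted p = 7.84e-10). MX2 and ISG20, interferon-induced antiviral genes, fell by 2.92 (SE 0.39) and 1.25 (SE 0.16).

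Few HLA class II genes fell. Of 16 tested, 6 rose and 1 fell, with a median of 0.25. CIITA, the master transactivator of class II, had 185, 195 and 202 CPM in knockdown libraries, against 129, 136 and 139 CPM in control libraries (log2 fold change 0.53, SE 0.06, adjusted p = 8.9e-09). RFX5, a subunit of the factor that binds class II promoters, rose by 0.52 (SE 0.10), and the chains HLA-DQA1 and HLA-DQB1 by 0.37 (SE 0.09) and 0.38 (SE 0.10). CD74, the invariant chain, was the 1 that fell, with 1129, 1178 and 1072 CPM in knockdown libraries, against 1377, 1404 and 1574 CPM in control libraries (log2 fold change -0.37, SE 0.05, adjusted p = 2.77e-06). The CIITA libraries did not overlap, and neither did those of CD74. Class II chains also have close relatives among which reads can be split.

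**Figure D3:**
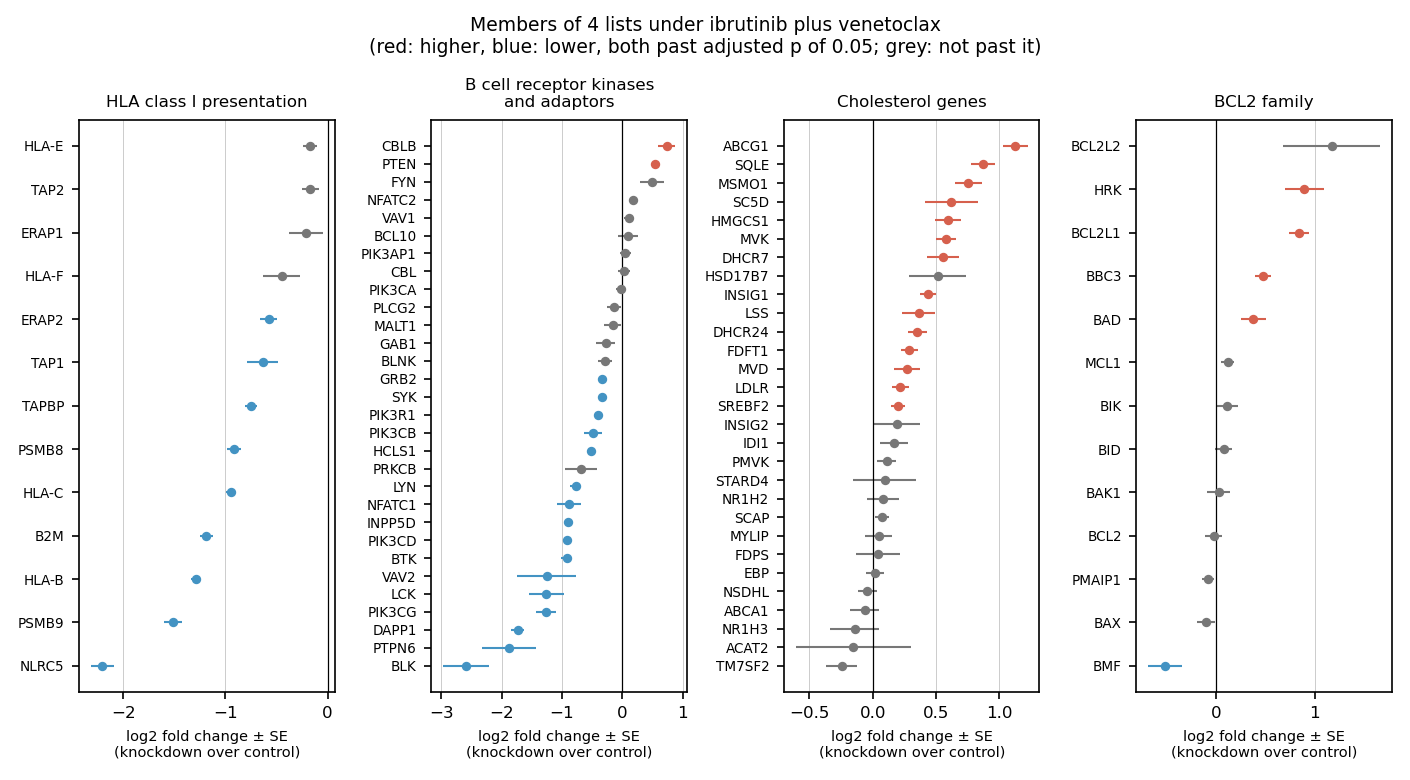
Log2 fold change of knockdown over control under drug, with SE bars, for tested members of 4 lists, sorted by value. All 13 class I genes plotted lie below 0, most B cell receptor genes lie below 0 with BTK at -0.92, the genes of cholesterol metabolism that passed lie above 0, and in the BCL2 family BCL2L1 lies at 0.84 and BCL2 at -0.02.

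In the BCL2 family the target of venetoclax did not pass, while a survival gene and 3 death genes rose. BCL2 had 32.7, 30.2 and 30.9 CPM in knockdown libraries, against 33.2, 30.6 and 31.3 CPM in control libraries. The groups overlapped (log2 fold change -0.02, SE 0.09, adjusted p = 0.881). BCL2L1, which encodes BCL-XL, had 41.2, 43.3 and 40.3 CPM in knockdown libraries, against 18.5, 24.2 and 27.1 CPM in control libraries (log2 fold change 0.84, SE 0.10, adjusted p = 4.24e-08), which is 1.79-fold the control level. Its knockdown libraries were tight, and the highest control library was below all of them. MCL1 had 426, 425 and 429 CPM in knockdown libraries, against 401, 389 and 388 CPM in control libraries, apart in every library but past the threshold only with library totals as the scaling (log2 fold change 0.12, SE 0.06, adjusted p = 0.159). BCL2L2, which encodes BCL-W, was at 0.988 to 1.31 CPM in knockdown libraries and 0.363 to 0.699 CPM in control libraries and likewise passed only with library totals (adjusted p = 0.0701). BBC3, which encodes the p53-induced death protein PUMA, had 60.8, 59.6 and 69.6 CPM in knockdown libraries, against 46.04, 40.3 and 50.3 CPM in control libraries (log2 fold change 0.48, SE 0.08, adjusted p = 3.92e-05). HRK, another BH3-only gene, had 8.4, 6.92 and 9.55 CPM in knockdown libraries, against 5.36, 3.1 and 4.83 CPM in control libraries (log2 fold change 0.90, SE 0.20, adjusted p = 0.000621). BAD, a BH3-only gene controlled by AKT, had 21.3, 23.04 and 20.9 CPM in knockdown libraries, against 14.2, 16.3 and 19.6 CPM in control libraries (log2 fold change 0.38, SE 0.12, adjusted p = 0.018). Of the 9 death genes tested these 3 rose, although BAD lost its call without knockdown replicate 2, control replicate 1 or control replicate 2. Among the 4 survival genes tested 1 rose, and over all genes tested 14.8% rose and 16.3% fell. BMF, which senses cytoskeletal stress, stood at -0.51 on the log2 fold scale (SE 0.17, adjusted p = 0.0229), a call that was lost with library totals and without knockdown replicate 2 or 3 or control replicate 1 or 2. The effector genes BAX and BAK1 had -0.10 (SE 0.09) and 0.03 (SE 0.12) and did not pass. No row carried the symbols BCL2A1, BCL2L10, BCL2L11 or BOK.

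Downstream of the BCL2 family, 3 of 16 genes for caspases, the apoptosome and inhibitors of apoptosis rose and 2 fell, a share near the 31.1% of all genes tested that passed. BIRC3, which encodes cIAP2 and is an NF-kB target, had 53.4, 62.2 and 49.9 CPM in knockdown libraries, against 36.95, 34.6 and 35.7 CPM in control libraries (log2 fold change 0.62, SE 0.08, adjusted p = 5.68e-07). CFLAR, which encodes the caspase-8 inhibitor c-FLIP, and CASP9 rose by 0.23 (SE 0.07) and 0.46 (SE 0.16), and both calls were lost without knockdown replicate 3. CASP9 was also lost without knockdown replicate 1 or control replicate 3 (adjusted p = 0.0237 with all libraries). The number that rose was 5 without control replicate 2 and 6 with library totals alone. CYCS, which encodes cytochrome c, had 347, 342 and 334 CPM in knockdown libraries, against 423, 406 and 412 CPM in control libraries (log2 fold change -0.28, SE 0.05, adjusted p = 4.37e-05). CASP1, the inflammatory caspase, had 0 to 2 counts in knockdown libraries and 18 to 26 counts in control libraries.

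Genes of the membrane skeleton and cortical actin changed in 26 of 32 tested, 20 lower and 6 higher, with a median of -0.39. CORO1A, coronin of blood cells, had 27.04, 26.98 and 23.6 CPM in knockdown libraries, against 80.5, 74.9 and 81.6 CPM in control libraries (log2 fold change -1.61, SE 0.08, adjusted p = 7.07e-17). WAS, which encodes the Wiskott-Aldrich syndrome protein that activates actin branching, had 27.3, 27.1 and 27.98 CPM in knockdown libraries, against 78.2, 83.3 and 72.4 CPM in control libraries (log2 fold change -1.5, SE 0.08, adjusted p = 1.3e-15). LCP1, the actin-bundling plastin of leukocytes, had 135, 129 and 122 CPM in knockdown libraries, against 242, 242 and 246 CPM in control libraries (log2 fold change -0.92, SE 0.05, adjusted p = 1.04e-14). Each of these blood cell genes was lower in every knockdown library, as GYPC was, whereas CTTN and PFN2, which act on actin in many tissues, were higher. Receptors of homing and adhesion went mostly the same way, with 8 of 14 lower and 2 higher and a median of -0.50. CCR7, the chemokine receptor that guides B cells into lymph nodes, had 14.96, 14.1 and 16.5 CPM in knockdown libraries, against 36.1, 35.8 and 42.5 CPM in control libraries (log2 fold change -1.33, SE 0.11, adjusted p = 4.92e-11). GPR183, the receptor that positions B cells within them, had 1.57, 2.15 and 2.41 CPM in knockdown libraries, against 16.1, 15.1 and 13.7 CPM in control libraries (log2 fold change -2.85, SE 0.18, adjusted p = 3.38e-14). L1CAM, an adhesion molecule known from neurons, had 9.71, 11.5 and 12.4 CPM in knockdown libraries, against 4.9, 3.36 and 3.87 CPM in control libraries (log2 fold change 1.47, SE 0.19, adjusted p = 4.27e-07) and was 1 of the 2 that rose. Among S100 genes 4 of 5 fell: beside S100A4, S100A6 fell by 1.15 (SE 0.14), S100A13 by 0.67 (SE 0.12), and S100A2 had 0 to 4 counts in knockdown libraries and 10 to 13 counts in control libraries.

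Most glycolysis genes fell, and many genes of cholesterol metabolism rose. Of 26 glycolysis and pentose phosphate genes tested, 19 fell and 1 rose, with a median of -0.34, with library totals alone 14 fell, and 0 rose without knockdown replicate 1 or 3 or control replicate 2. PKM, pyruvate kinase, had 298, 319.5 and 267 CPM in knockdown libraries, against 479.9, 488 and 469 CPM in control libraries (log2 fold change -0.70, SE 0.06, adjusted p = 9.8e-11). SLC16A3, a lactate exporter, had 1.71, 2.39 and 1.98 CPM in knockdown libraries, against 10.6, 10.1 and 11.2 CPM in control libraries (log2 fold change -2.38, SE 0.21, adjusted p = 9.47e-11). ENO1, enolase, had 492, 499.5 and 516 CPM in knockdown libraries, against 631, 619 and 700.2 CPM in control libraries (log2 fold change -0.37, SE 0.05, adjusted p = 2.19e-06). All 3 were lower in every knockdown library. PFKL, a phosphofructokinase, and LDHA, lactate dehydrogenase, fell by 0.58 (SE 0.08) and 0.35 (SE 0.06). Hypoxia response genes, a list that holds ADM, did not share this direction: 4 of 15 rose, NDRG1 among them by 1.0 (SE 0.19), and 2 fell. Over all genes tested 14.8% rose and 16.3% fell.

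Of 30 genes of cholesterol synthesis, uptake and efflux, 15 rose and 0 fell, with a median of 0.21. SQLE, squalene epoxidase, had 47.4, 51.8 and 47.2 CPM in knockdown libraries, against 28.4, 26.6 and 24.9 CPM in control libraries (log2 fold change 0.87, SE 0.09, adjusted p = 6.2e-09). MSMO1, a later enzyme of the pathway, had 29.1, 26.98 and 25.5 CPM in knockdown libraries, against 15.04, 17.4 and 15.8 CPM in control libraries (log2 fold change 0.75, SE 0.11, adjusted p = 1.19e-06). ABCG1, which exports cholesterol, had 36.5, 33.7 and 33.6 CPM in knockdown libraries, against 15.3, 14.9 and 17.3 CPM in control libraries (log2 fold change 1.13, SE 0.10, adjusted p = 1.14e-10). Synthesis and export genes were both among the rises, and the 3 genes did not overlap between groups. HMGCS1, an early enzyme of the pathway that is named for its promoter, rose by 0.60 (SE 0.11, adjusted p = 4.47e-05). Its promoter (GRCh38.p14, chr5:43313363-43313662, minus strand) holds 2 CCAAT boxes, in capitals on either strand, which 16 of 23 promoters of the list held (69.6%, against 35.7% of all).
HMGCS1: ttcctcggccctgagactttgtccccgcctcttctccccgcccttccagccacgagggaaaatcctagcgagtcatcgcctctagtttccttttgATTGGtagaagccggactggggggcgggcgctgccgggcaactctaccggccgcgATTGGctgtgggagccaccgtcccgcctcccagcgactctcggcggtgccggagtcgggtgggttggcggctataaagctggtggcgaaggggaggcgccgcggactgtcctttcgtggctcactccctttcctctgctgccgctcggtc
The sterol response letters TCACNCCAC were in 1 of these 23 promoters and in 1.15% of all, within this window.

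Fatty acid genes went the other way in part. Of 18 tested, 6 fell and 3 rose, against 16.3% and 14.8% of all genes tested, so the rises were near that share. The desaturase genes FADS1 and FADS2, which make polyunsaturated fatty acids, fell together with their neighbour FADS3. FADS1 had 11.3, 14.3 and 14.05 CPM in knockdown libraries, against 37.2, 39.9 and 41.9 CPM in control libraries (log2 fold change -1.58, SE 0.10, adjusted p = 1.37e-13). FADS2 had 2.62, 1.31 and 1.43 CPM in knockdown libraries, against 15.2, 12.7 and 14.6 CPM in control libraries (log2 fold change -3.0, SE 0.24, adjusted p = 1.22e-11). FADS3 had 10.9, 12.5 and 14.5 CPM in knockdown libraries, against 50.4, 55.3 and 58.02 CPM in control libraries (log2 fold change -2.10, SE 0.11, adjusted p = 6.01e-16). In all 3 the control libraries were at several times the knockdown libraries. ACSL3, which activates long-chain fatty acids, had 243, 221 and 225 CPM in knockdown libraries, against 169, 143 and 141 CPM in control libraries and rose (log2 fold change 0.60, SE 0.06, adjusted p = 2.73e-09).

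Genes of growth and protein folding showed many small falls. Of 27 genes of MYC and ribosome biogenesis, 1 rose and 13 fell (median -0.21), of 30 genes of G2/M and mitosis 14 were lower past the threshold and 1 higher (median -0.19), of 19 heat shock chaperones 10 fell and 0 rose (median -0.23), and of 31 nuclear genes of oxidative phosphorylation, 1 rose and 12 fell (median -0.16). With library totals alone the falls numbered 9, 9, 10 and 7, and 2 oxidative phosphorylation genes rose without control replicate 3 and 3 with library totals. NCL, nucleolin, had 1369.5, 1404 and 1463 CPM in knockdown libraries, against 1812, 1846 and 1824 CPM in control libraries (log2 fold change -0.37, SE 0.05, adjusted p = 9.4e-08). TOP2A, the topoisomerase of mitosis, had 1411, 1404 and 1592 CPM in knockdown libraries, against 1909, 1982 and 1898 CPM in control libraries (log2 fold change -0.39, SE 0.05, adjusted p = 5.3e-07). HSPD1, the mitochondrial chaperonin, had 731, 727 and 807 CPM in knockdown libraries, against 1026, 1022 and 997 CPM in control libraries (log2 fold change -0.43, SE 0.05, adjusted p = 2.69e-08). NDUFA9, a subunit of complex I, had 156, 159 and 159 CPM in knockdown libraries, against 201, 210.1 and 217 CPM in control libraries (log2 fold change -0.41, SE 0.05, adjusted p = 6.49e-07). The groups were apart in each, although the changes were well under 2-fold. MXD4, an antagonist of MYC, was the 1 of its list that rose (log2 fold change 1.10, SE 0.13), and PLK1 and AURKA, mitotic kinases, fell by 0.61 (SE 0.09) and 0.34 (SE 0.06). G1/S and DNA replication genes changed in 9 of 33, 7 lower and 2 higher (4 higher with library totals alone), a share below that of all genes tested. CCND1, the cyclin D1 gene that the lymphoma translocation activates, had 3497, 3972 and 3290.2 CPM in knockdown libraries, against 4339, 4381 and 4651 CPM in control libraries (log2 fold change -0.31, SE 0.06, adjusted p = 0.000127).

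Mitochondrially encoded genes had 6 of 13 lower and 0 higher, against 16.3% and 14.8% of all genes tested. With library totals alone 5 were lower and 1 higher, and 5 to 8 were lower when 1 library was left out. MT-ND6 had 256, 297 and 280.3 CPM in knockdown libraries, against 495, 521 and 499.6 CPM in control libraries (log2 fold change -0.86, SE 0.06, adjusted p = 5.39e-13). MT-CO1 had 839, 907 and 882 CPM in knockdown libraries, against 1156, 1226 and 1245 CPM in control libraries (log2 fold change -0.46, SE 0.05, adjusted p = 2.29e-08). MT-ND6 is annotated on the opposite strand to its neighbour MT-ND5, and the strand setting of the counting is not given in the sources used here, so reads of MT-ND6 and reads antisense to it cannot be told apart. Of 36 cytosolic ribosomal protein genes 11 rose and 2 fell, with a median of 0.07. RPL7A had 1973, 1895 and 1901 CPM in knockdown libraries, against 1549, 1507 and 1629 CPM in control libraries (log2 fold change 0.30, SE 0.05, adjusted p = 4.94e-06). The number that rose was 6 without control replicate 2 and 21 with library totals alone, the number that fell was 0 without knockdown replicates 1 or 2 or control replicate 3 and 1 without control replicate 1, and many of these genes have pseudogene copies that can share reads. The share of ribosomal RNA, 8.36% in knockdown and 10.6% in control libraries, moves with this group, and its part in the result was not tested.

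**Figure D4:**
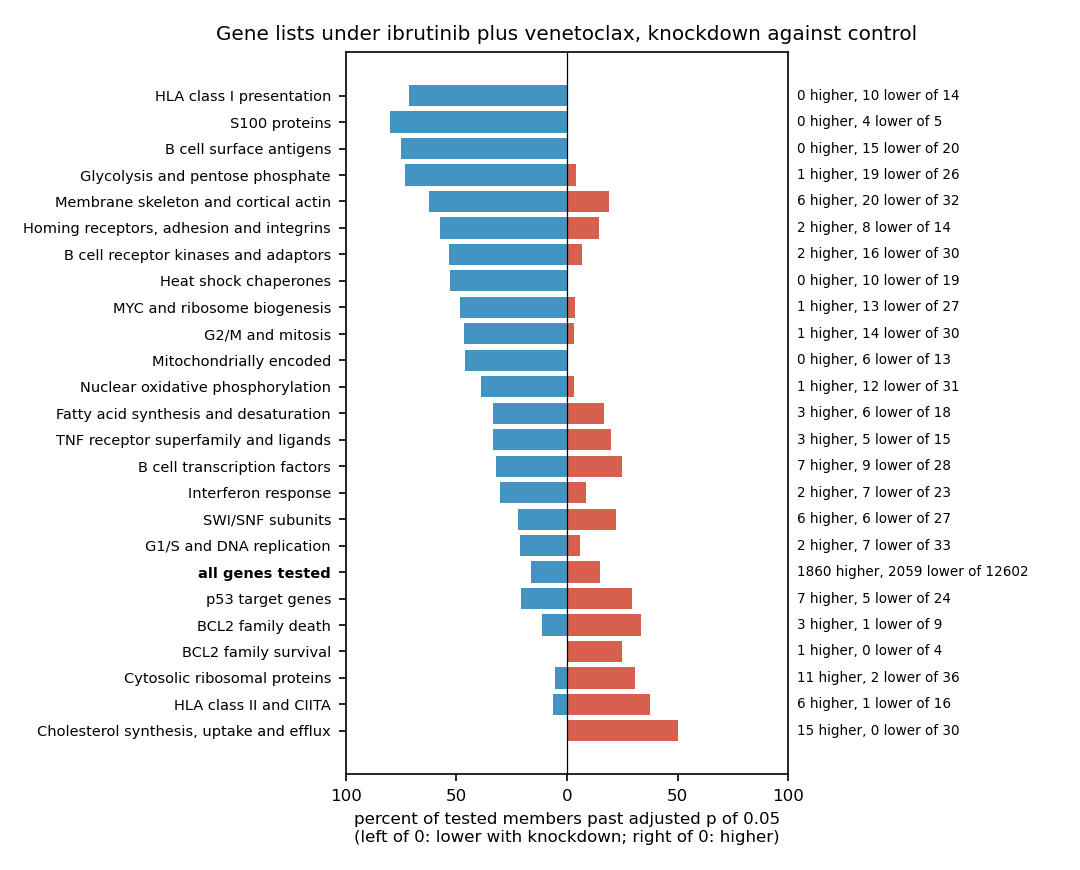
Percent of tested members of each list drawn that passed adjusted p of 0.05 under drug, lower with knockdown to the left of 0 and higher to the right, with counts at the side. All genes tested (16.3% lower, 14.8% higher) are in bold; among the lists drawn, HLA class I, S100, B cell surface and glycolysis genes have the highest shares of falls, and cholesterol genes the highest share of rises.

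Stress and p53 target genes changed in both directions, with a few strong rises. Over all genes tested 14.8% rose and 16.3% fell. Of 24 p53 targets 7 rose and 5 fell. The falls numbered 0 to 3 in the 6 fits that each left out 1 library, and 0 with library totals alone. BTG2, an antiproliferative gene, had 29, 29.8 and 23.9 CPM in knockdown libraries, against 8.63, 8.91 and 9.31 CPM in control libraries (log2 fold change 1.62, SE 0.15, adjusted p = 1.96e-10). TP53INP1 had 14.8, 18.4 and 16.5 CPM in knockdown libraries, against 6.88, 5.3 and 7.01 CPM in control libraries (log2 fold change 1.37, SE 0.17, adjusted p = 9.21e-08). Both lay higher in every knockdown library, and MDM2, the p53 antagonist, rose by 0.23 (SE 0.06). Of 29 genes of the ATF4 and amino acid stress list, 5 rose and 8 fell, and with library totals alone 4 fell. SLC7A5 and SLC3A2, the chains of the LAT1 amino acid transporter, rose by 0.80 (SE 0.06) and 0.40 (SE 0.06), whereas SHMT2, which converts serine to glycine in mitochondria, and TRIB3 fell by 0.65 (SE 0.06) and 1.24 (SE 0.14). ATF3, which lies outside the naming rule and is named after its values were seen, had 4.07, 3.82 and 2.41 CPM in knockdown libraries, against 3.61, 7.36 and 4.71 CPM in control libraries, with overlap between groups (log2 fold change -0.61, SE 0.28, adjusted p = 0.101). Without the control library that names no treatment it passed (log2 fold change -0.82, adjusted p = 0.0351). Of 26 immediate early and AP-1 genes, 2 rose and 6 fell, or 3 fell with library totals alone, a share near that of all genes tested. Without the control library that names no treatment 0 rose, and without knockdown replicate 2 or control replicate 3 it was 1. BATF, an AP-1 factor of lymphocytes, had 4.99, 5.25 and 3.73 CPM in knockdown libraries, against 15.6, 13.7 and 16.2 CPM in control libraries (log2 fold change -1.71, SE 0.19, adjusted p = 1.61e-08). Of 29 autophagy and lysosome genes 6 rose and 8 fell, and 5 fell without knockdown replicate 2. CTSS, the cathepsin that trims the invariant chain, had 28.5, 31.5 and 31.3 CPM in knockdown libraries, against 57.2, 64.1 and 61.4 CPM in control libraries (log2 fold change -1.0, SE 0.08, adjusted p = 5.42e-12). ULK1, the kinase that starts autophagy, had 92.4, 86.8 and 96.7 CPM in knockdown libraries, against 50.01, 51.9 and 52.7 CPM in control libraries (log2 fold change 0.84, SE 0.07, adjusted p = 1.8e-11). These last 2 were apart in opposite directions.

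Other chromatin regulators changed in both directions. Of 17 ATPases of other remodellers 4 rose and 3 fell, and of 23 Polycomb genes 6 rose and 6 fell. Over all genes tested 14.8% rose and 16.3% fell. CHD7 had 129, 134 and 136 CPM in knockdown libraries, against 64.1, 62.9 and 71.4 CPM in control libraries (log2 fold change 1.01, SE 0.06, adjusted p = 5.1e-14). CHD4, the ATPase of the NuRD complex, had 505, 514 and 566 CPM in knockdown libraries, against 712, 737 and 738 CPM in control libraries (log2 fold change -0.46, SE 0.05, adjusted p = 7.72e-09). RNF2, the Polycomb ubiquitin ligase, rose by 0.45 (SE 0.10). The Polycomb falls were 2 without knockdown replicate 1, 3 without control replicate 3 and 1 with library totals alone, and with library totals 8 of the ATPases and 13 of the Polycomb genes rose. Of 7 ABC transporters tested 1 rose, ABCA3, with 10.8, 10.9 and 8.01 CPM in knockdown libraries, against 5.25, 5.55 and 5.32 CPM in control libraries (log2 fold change 0.87, SE 0.18, adjusted p = 0.000292), while 2 rose without knockdown replicate 3 and 3 with library totals alone. The 1 of 7 ABC transporters was near the share of all genes tested that rose. ABCB1, the drug pump of classic multidrug resistance, had no row under that symbol.

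The genes that changed most under drug were also called for the same knockdown without drug. The drug and DMSO comparisons share no library. In DMSO 15.1% of genes tested rose and 16.2% fell, and all 30 lead genes passed there in the same direction. The difference between the 2 effects was tested for every gene, and 3 of 12602 passed (0.0238%), none of them a lead gene. The difference had an unadjusted p under 0.05 for 674 genes (5.35%), near the share that this threshold passes where no difference exists. Of the 30 lead genes 5 were among them, but these genes were picked for large effects under drug, which enter the difference. FAM65B fell by 4.70 under drug and 3.85 in DMSO, and CCDC110 rose by 2.05 under drug and 1.15 in DMSO (unadjusted p = 0.00101 and 4.64e-05, adjusted p = 0.455 and 0.0975). A call under drug and not in DMSO was common and shows no difference: 1052 genes passed under drug and not in DMSO, and 953 of these had the same sign in DMSO. Of these 1052 genes 228 had an unadjusted p of the difference under 0.05, and 1 passed after adjustment. They were picked by unlike calls in the same libraries that give the difference. That choice by itself raises the 228, so no conclusion is drawn from it.

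The 3 genes past the threshold for the difference were ribosomal RNA 18S and 28S and the nuclear noncoding RNA NEAT1, the scaffold of paraspeckles. RNA18S5 had 59702, 73332 and 74914 CPM in knockdown libraries, against 93428, 90450.0 and 88255 CPM in control libraries, a fall of 0.39 (SE 0.06), while in DMSO its log2 fold change was 0.17 (SE 0.06). RNA28S5 had 9047, 14763 and 12115 CPM in knockdown libraries, against 16558, 19223 and 18219 CPM in control libraries, a fall of 0.59 (SE 0.11), while in DMSO it was 0.20 (SE 0.11). NEAT1 stood at 0.14 on the log2 fold scale (SE 0.07, adjusted p = 0.11; past the threshold with library totals and without knockdown replicate 3) under drug and -0.35 (SE 0.07) in DMSO. RNA18S5 passed in both treatments, lower under drug and higher in DMSO, whereas RNA28S5 passed only under drug. BCL2L1 rose by 0.84 under drug and by 0.996 in DMSO, and the difference did not pass (-0.15, SE 0.14, adjusted p = 0.974).

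**Figure D5:**
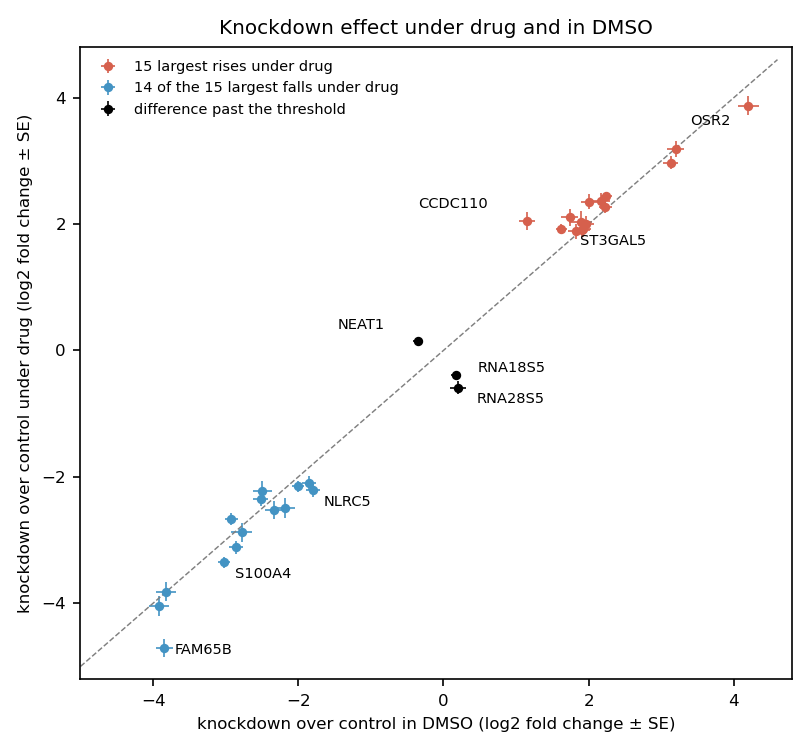
Log2 fold change of knockdown over control under drug (vertical axis) against that in DMSO (horizontal axis), with SE bars, for 29 of the 30 lead genes and the 3 genes whose difference passed; the dashed line marks equal effects. The lead genes lie near the line, with FAM65B (-4.70 under drug, -3.85 in DMSO) and CCDC110 (2.05 and 1.15) farther from it.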

How the data were processed

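RNA of Z-138 cells was read in 12 libraries, 4 groups of 3, of which 6 form the comparison described here. Per the labels' protocols, libraries were made with the Lexogen QuantSeq 3' mRNA-Seq kit. In the submitters' processing notes stand hg19, HTSeq, HISAT2 and bcl2fastq 2.17.1.14. The annotation, the strand setting and any filter are not stated there. The authors deposited whole-number counts per gene, not normalized, for 13820 genes. Of these, 1656 rows had no symbol, and 1326 of them were named from a table of Ensembl identifiers. The column with no treatment in its name was assigned as the only sample left.

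Counts were used as deposited. CPM are counts scaled to the library's total times its TMM factor, and shares of counts use the total alone. Genes were filtered with edgeR's filterByExpr (minimum count 10, minimum total 15), which removed 1218, and 12602 were tested with edgeR 4.0.16 under R 4.3.3: TMM scaling, 1 coefficient per group, all 12 libraries, quasi-likelihood F test, two-sided, Benjamini-Hochberg over all genes, threshold 0.05. "Rose" and "fell" mean past it. The SE was taken as the log2 fold change over the square root of F (an approximation). Precision follows from totals of 7279503 to 8896669 counts per library under drug. A kit primed at 3' ends gives no measure per transcript length, so levels are not compared between genes.

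Named genes are SMARCA4, BTK, GAPDH, members of the SWI/SNF and BCL2 family lists, the 15 largest changes in each direction (mean log2 CPM of at least 3, no overlap), up to 5 members with the smallest adjusted p of every other list, and genes past the threshold for the difference between treatments. Some genes of the rule and of the lists are not reported here, and they are left out of the plots of named genes but not of the counts. ATF3, HMGCS1, SPI1, PAX5, EBF1 and CD37 were named after their values were seen. The comparison and its 44 gene lists were chosen with earlier results of these data known. Alternatives were DESeq2 1.42.0 size factors and Wald test, library totals, limma-voom (limma 3.58.1), no low-count filter, 5 CPM in 3 libraries, the drug libraries alone, a replicate block, no ribosomal RNA rows, and leaving out each library. Replicates of a group differed by more than counting noise. Gene positions are not given, since the reference is of another build than hg19. Promoters and microRNAs are RefSeq's, GRCh38.p14.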

Additional observations from a re-analysis of the deposited data

Results flagged for a closer look

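The effect of the knockdown differed between drug and DMSO for 3 rows, by a test of the difference itself in edgeR (effect under drug minus effect in DMSO, adjusted over all genes tested). RNA18S5, 18S ribosomal RNA, had a difference of -0.55 (adjusted p = 0.00203), with -0.39 under drug and 0.17 in DMSO. RNA28S5, 28S ribosomal RNA, had a difference of -0.79 (adjusted p = 0.048), with -0.59 under drug and 0.20 in DMSO. NEAT1 had a difference of 0.50 (adjusted p = 0.048), with 0.14 under drug and -0.35 in DMSO. Ribosomal RNA is largely without poly(A) tails, and its share of counts was 7.2% to 8.98% in knockdown libraries under drug, 10.2% to 10.8% in control libraries under drug, 10.04% to 11.06% in knockdown libraries in DMSO and 8.86% to 9.47% in control libraries in DMSO. With the ribosomal rows taken out before scaling, the count of differences was 0. RNA18S5 and RNA28S5 could not be counted in that setting, so it bears only on NEAT1, which no longer passed. Whether the ribosomal share reflects the cells or the libraries was not tested.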

How the results depend on the processing

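The numbers of genes that rose and fell under drug stayed within 1.5 times of 1860 and 2059 in every alternative tried, and between 1626 and 1722 and between 1665 and 1840 when 1 library was left out. The library totals moved the balance most (2691 higher, 1447 lower). The 3 differences between treatments were 1 with the filter at 5 CPM and 0 without ribosomal RNA rows, where RNA18S5 and RNA28S5 could not be counted. They were 1 to 3 when 1 of 12 libraries was left out (1 without knockdown replicate 1 or control replicate 2 or 3 under drug, and 1 without knockdown replicate 3 or control replicate 1 or 2 in DMSO). Without the ribosomal rows edgeR had 676 differences at an unadjusted p under 0.05, and with all rows DESeq2 and limma-voom each called 4. With the replicate number as a block, 1811 rose, 2016 fell and 2 differences passed. Same-numbered knockdown and control libraries deviated together with correlations of 0.227, -0.023 and 0.113 over 8180 genes, so the numbers were not taken as pairs. Of 151 genes named, PAX5, EBF1 and CD37 not counted, 142 passed the threshold. Of these, 7 lost their call in at least 1 of up to 15 settings, with 0 called in the opposite direction. Genes near 0 changed sign. BCL2 was 0.059 with library totals, 0.003 without knockdown replicate 2 and 0.014 without control replicate 1, and ranged between -0.048 and 0.014 when 1 library was left out. BAK1 was -0.071 without knockdown replicate 3 and -0.046 without control replicate 2, and ranged between -0.071 and 0.114. The cause of these changes was not tested. Depth limits genes with a few counts per library, such as SPI1, CASP1 and S100A2, whose fold changes are not given.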
